A study of Homo sapiens with 12 samples.

Results

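The genes described here are the ubiquitin-specific proteases (USPs) and the ubiquitin C-terminal hydrolase (UCH) family of HEK293T cells. They were chosen by symbol, as every gene name made of USP, a number and at most an X or an L (1 matching symbol is left out), with CYLD, UCHL1, UCHL3, UCHL5 and BAP1. That rule gave 55 of the 59385 gene names in the count table. Of these, 52 had enough counts to be tested, and USP26, USP29 and USP41 did not, with at most 1 count in any library. HEK293T is a human embryonic kidney line that carries the SV40 large T antigen. One line expressed a Dox-inducible non-silencing control shRNA (shCtrl) and the other a Dox-inducible shRNA against the RNA-binding protein PRRC2B (shPRRC2B), and both were harvested 36 h after Dox was added. From each line, total RNA and polysome-associated RNA (the pooled heavy fractions of a sucrose gradient) were sequenced after poly(A) enrichment in 3 biological replicates, which gave 12 libraries in 4 groups. Each shRNA was studied in a stable single clone, so an effect of the shRNA and a difference between clones cannot be told apart in these data.

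Ubiquitin is a small protein that is attached to other proteins as a single tag or as a chain, and the linkage and length of the chain decide whether the tagged protein is degraded by the proteasome, moved within the cell or used as a signal. Deubiquitinases cut ubiquitin off again. The USPs are the largest family of these enzymes and share a cysteine protease fold with a wide range of added domains, while the UCH enzymes are a small cysteine protease family with BAP1 as its large nuclear member. Each enzyme acts on its own set of proteins, among them histones, p53 and its ligase MDM2, DNA repair proteins, receptors on endosomes and proteins bound to the proteasome.

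Translation efficiency (TE) of a gene is the ratio of its level in polysome RNA to its level in total RNA. The TE change is that ratio in shPRRC2B cells over the ratio in shCtrl cells, on the log2 scale. Levels are given as CPM (counts scaled to a common library size) after TMM scaling, in the order of replicates 1, 2 and 3. Changes (± standard error, SE) and p values were obtained with the quasi-likelihood test of edgeR, and p values were adjusted by Benjamini-Hochberg over the 18166 genes tested. Calls needed an adjusted p below 0.05 and a log2 change above 0.5 or below -0.5 (TE-up or TE-down for the TE change).

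Library totals ran from 9855734 to 20837542 counts. PRRC2B mRNA was lower in shPRRC2B cells by a log2 change of -1.49 in total RNA. Of 8 genes known to be expressed in HEK293T cells, 7 passed the filter on low counts, and their summed level was 578.2 CPM in shCtrl and 283.9 CPM in shPRRC2B total RNA, a gap carried mostly by the neurofilament genes NEFM and NEFL. In polysome RNA the same sum was 211.3 and 94.53 CPM. Of 12 markers of leukocytes, endothelium, fibroblasts, hepatocytes and red cells, 9 did not pass the filter, HBB was at 0 in every library, and the summed level was 6.788 and 2.378 CPM in total RNA and 4.447 and 4.031 CPM in polysome RNA of shCtrl and shPRRC2B cells. The part of this difference between the lines in the changes below was not tested.

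The same study mapped PRRC2B on RNA by PAR-CLIP, in which RNA crosslinked to the protein is recovered and sequenced. The study lists sites for full-length PRRC2B or its RNA-binding fragment P2 at 6 of the 55 genes. Both constructs were FLAG-tagged and overexpressed, while the shRNA acted on endogenous PRRC2B. The sequences are shown because PRRC2B is the protein that was depleted. Sites of both constructs overlapped at 3 of the 6 (USP13, USP22 and USP53), which is what the study took as bound, while USP1 had a site for P2 only and USP33 and USP9X for full-length PRRC2B only. They were read from GRCh38 on the strand of the gene, 5′ to 3′, and capitals mark the longest run of C and T. The study reported motifs rich in G and A as well as in C and U, and the former are not marked. The 100-base sites of full-length PRRC2B held 67 G or A bases in USP33, 56 in USP22 and 41 in USP9X. The P2 site in USP1 held 39. In USP33 the site lies in coding exon 10 (chr1:77728581-77728680, minus strand). In USP9X it spans the end of coding exon 27 and the intron after it (chrX:41196314-41196343 within it, plus strand). In USP22 it lies in the 3' UTR (chr17:21002865-21002894 within it, minus strand), and in USP1 it spans the end of the coding sequence and the 3' UTR in exon 9 (chr1:62450911-62450940 within it, plus strand, P2 only). Up to 30 bases are shown for the last 3 genes.
USP33: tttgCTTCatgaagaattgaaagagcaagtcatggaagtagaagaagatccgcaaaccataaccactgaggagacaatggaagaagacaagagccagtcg
USP9X: ccggcctctaCTTTTCTTCattactctact
USP22: CCCCTCTgcacctgggacccatcgggtcgg
USP1: ttctgaaTTCTCTTTCCCCTTCTacatctc

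The other sites lie in introns. USP13 has 1 (chr3:179779603-179779702, plus strand) and USP53 has 2 that lie next to each other (chr4:119237372-119237471 and chr4:119237468-119237567, plus strand).
USP13: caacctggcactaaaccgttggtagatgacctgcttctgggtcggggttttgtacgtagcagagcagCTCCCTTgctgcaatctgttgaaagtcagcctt
USP53 first: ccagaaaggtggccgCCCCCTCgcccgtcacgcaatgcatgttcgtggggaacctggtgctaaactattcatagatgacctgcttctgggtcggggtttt
USP53 second: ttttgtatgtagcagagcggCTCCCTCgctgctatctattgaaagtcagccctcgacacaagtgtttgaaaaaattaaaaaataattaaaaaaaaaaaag
The USP13 site resembled each USP53 site, and all 3 resembled the large ribosomal RNA. It had 44 identical bases in 50 aligned columns with the first USP53 site (88%) and 46 in 51 with the second (90.2%), while the USP53 sites shared only 11 in 13 with each other. Against the ribosomal RNA gene RNA28SN2 (chromosome 21 of GRCh38, 8213888 to 8218941), the USP13 site had 89 identical bases in 97 aligned columns (91.8%), the first USP53 site 88 in 96 (91.7%) and the second 63 in 68 (92.6%), all on the same strand. The USP53 sites matched adjoining stretches of that RNA, positions 4892 to 4987 and 4985 to 5052, and the USP13 site matched 4939 to 5035. The sites in USP1, USP9X, USP22 and USP33 matched it best over 26 to 64 columns with 63.5% to 76.9% identity. Whether the crosslinked RNA at the intronic sites came from the USP13 and USP53 pre-mRNAs or from ribosomal RNA was not tested.

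Between the lines, 18 of the 52 tested members were TE-down (34.6%, beside 16.4% of all genes) and 2 were TE-up (3.85%, beside 10.7% of all genes). The median TE change of the members was -0.471, and that of all genes was -0.0341. Of the 52, 41 had a TE change below 0, and 10 of the TE-down members had one below -1. Neither of these counts was set beside a share of all genes. The largest falls were in USP34, USP9X, USP13, USP22 and USP7, and the called rises were in USP21 and USP45. When each library's trend of counts on transcript length was taken out (length trend removed), 7 members were TE-down (13.5%, beside 10.8% of all genes with a known length) and 3 were TE-up (5.77%, beside 11.0%). In that setting 28 of the 52 had a TE change below 0 and 24 had one above 0. Their median was -0.0853, beside 0.0241 over all genes with a known length. In bulk RNA, fewer cells with a transcript and less of it per cell cannot be told apart.

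**Figure D1:**
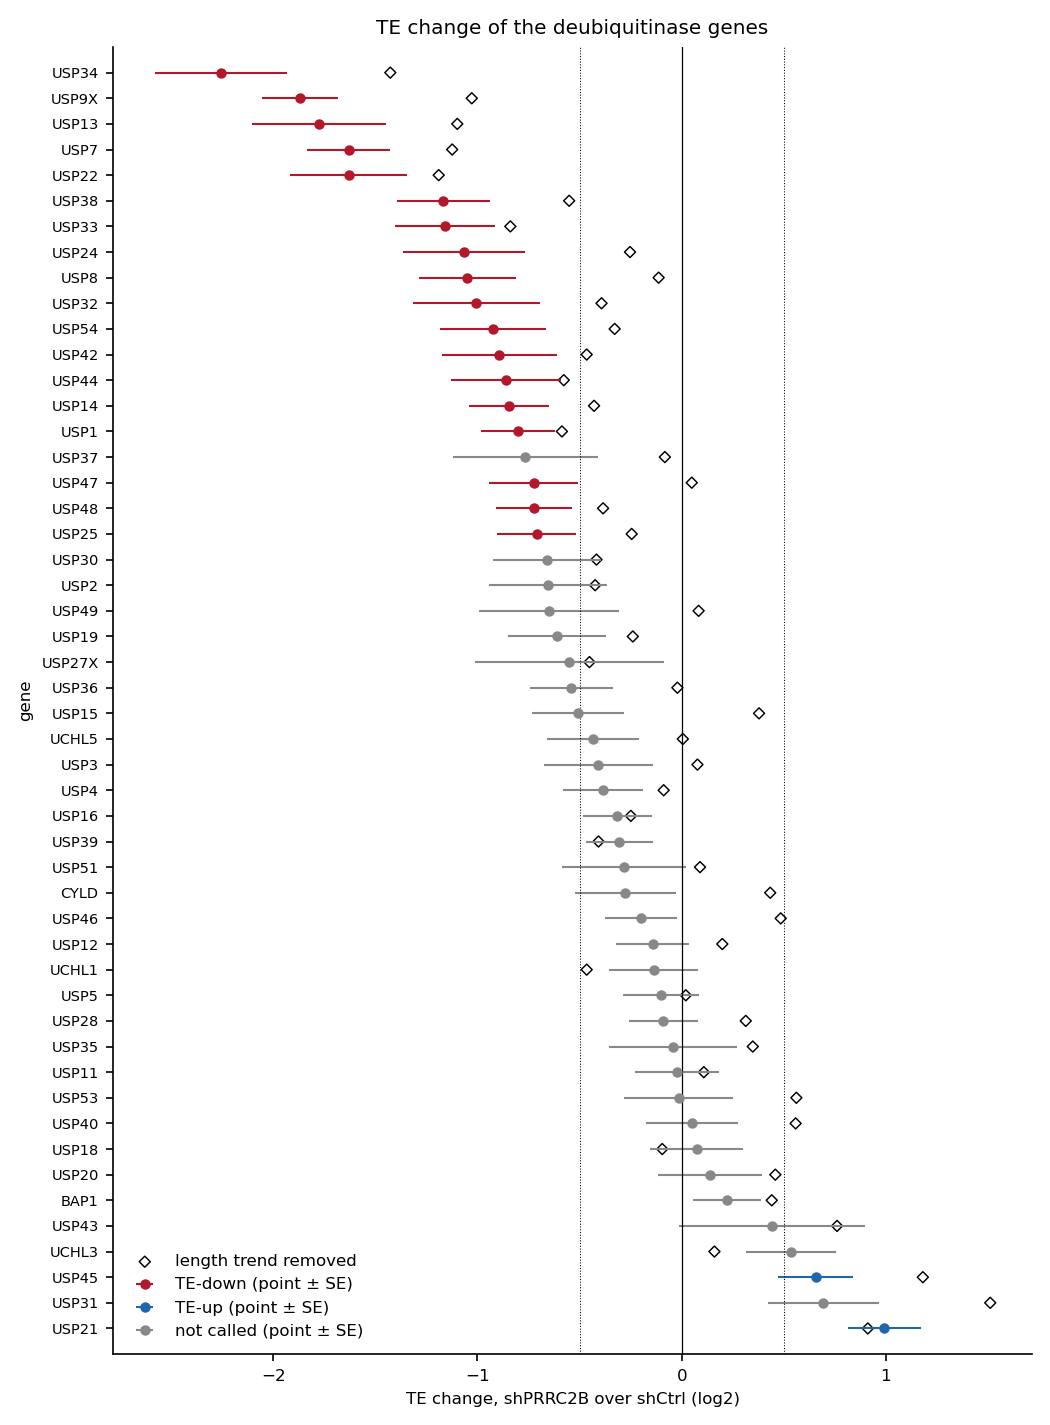
TE change (log2, x axis) of the 50 members with a mean of at least 1 CPM, 1 gene per line, with bars of 1 standard error from edgeR; dotted lines mark -0.5 and 0.5, and open diamonds give the value with the length trend removed. USP34 lies lowest at -2.26 and USP21 highest at 0.99, and the diamonds of most TE-down genes lie nearer to 0 than their points.

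The lowest TE changes of the members were those of USP34 and USP9X. USP34, which acts in the Wnt pathway on axin (ENSG00000115464.15, chromosome 2 of GRCh38, 61187463 to 61471087, minus strand), was at 75.6, 81.3 and 93.4 CPM in shCtrl total RNA and 117, 136 and 125 CPM in shPRRC2B total RNA. Its polysome RNA was at 6.65, 11.4 and 13.9 CPM in shCtrl and 3.27, 4.58 and 2.19 CPM in shPRRC2B cells. All 3 shPRRC2B libraries were above the shCtrl libraries in total RNA and below them in polysome RNA. TE changed by -2.26 ± 0.32 (SE, edgeR adjusted p = 0.000125), with 0.60 in total and -1.66 in polysome RNA, both past the thresholds.

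USP9X, an X-linked enzyme known to stabilize proteins such as MCL1 (ENSG00000124486.15, chromosome X of GRCh38, 41085445 to 41236579, plus strand), had the most total RNA counts of all members. Its total RNA was 411, 423 and 435 CPM in shCtrl and 599, 654 and 592 CPM in shPRRC2B cells. Its polysome RNA was 72.8, 69.8 and 73.2 CPM in shCtrl and 34.05, 28.5 and 23.2 CPM in shPRRC2B cells. The groups did not overlap in either fraction and moved in opposite directions, with log2 changes of 0.54 in total and -1.33 in polysome RNA and a TE change of -1.87 ± 0.19 (SE, edgeR adjusted p = 1.11e-05). Smaller TE changes were called in USP24, at -1.06, USP47, which acts in base excision repair, at -0.73 and USP48 at -0.72 (adjusted p = 0.0142, 0.0204 and 0.00806, edgeR). Of these 3, USP47 and USP48 were higher in total RNA and USP24 was not called there. With the length trend removed, USP24, USP47 and USP48 were not called, and USP47 stood at 0.05.

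USP48 (ENSG00000090686.16, chromosome 1 of GRCh38, 21678298 to 21783606, minus strand) had the largest called rise in total RNA. It was at 57.3, 53.4 and 54.5 CPM in shCtrl total RNA and 93.1, 94.5 and 96.2 CPM in shPRRC2B total RNA, a change of 0.78 ± 0.12 (SE, edgeR adjusted p = 0.000159). In polysome RNA it was at 25.01, 22.1 and 18.5 CPM and 24.7, 23.7 and 20.1 CPM, and these groups overlapped. Its TE change was thus a rise in total RNA that polysome RNA did not follow.

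Among the USPs that act in the p53 pathway, USP7, which removes ubiquitin from MDM2 and p53 (ENSG00000187555.17, chromosome 16 of GRCh38, 8892097 to 8975328, minus strand), was TE-down. It was at 110.4, 111 and 124 CPM in shCtrl and 159, 168 and 159.7 CPM in shPRRC2B total RNA. The polysome libraries held 27.7, 24.96 and 26.6 CPM in shCtrl and 14.4, 12.7 and 8.94 CPM in shPRRC2B cells. Polysome RNA was lower in every shPRRC2B library while total RNA was higher in every one, and the TE change was -1.63 ± 0.20 (SE, edgeR adjusted p = 4.15e-05). USP28 and USP2 of the same list did not pass the test, with TE changes of -0.09 and -0.65 (adjusted p = 0.736 and 0.104, edgeR). USP42, another enzyme that acts on p53, had a TE change of -0.89 (adjusted p = 0.026, edgeR).

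USP5 takes apart ubiquitin chains that are not attached to a protein, and USP13 is its paralog. USP13 (ENSG00000058056.10, chromosome 3 of GRCh38, 179653032 to 179804366, plus strand) was at 25.9, 26.4 and 30.5 CPM in shCtrl and 22.8, 22.2 and 24.7 CPM in shPRRC2B total RNA. On polysomes the level was 4.78, 7.70 and 7.43 CPM in shCtrl and 2.24, 1.62 and 0.951 CPM in shPRRC2B cells, the last from 26, 17 and 10 counts. All 3 shPRRC2B libraries were lower in both fractions, and the fall in polysome RNA was the largest called fall of any member, at -2.02 ± 0.27 (SE, edgeR adjusted p = 1.53e-05). The change in TE was -1.78 ± 0.33 (SE, edgeR adjusted p = 0.000875). USP5 had a TE change of -0.10 (adjusted p = 0.73, edgeR), and the difference between the paralogs was not tested.

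Of 9 enzymes known to act on ubiquitinated histones, 2 were TE-down (USP22 and USP44), 1 was TE-up (USP21) and 6 were not called, beside 16.4% TE-down and 10.7% TE-up over all genes. USP22, the deubiquitinase of the SAGA coactivator complex (ENSG00000124422.12, chromosome 17 of GRCh38, 20999596 to 21043760, minus strand), was at 265, 297 and 262 CPM in shCtrl and 335, 347 and 344 CPM in shPRRC2B total RNA. In polysome RNA it was at 29.6, 60.98 and 57.7 CPM in shCtrl and 22.5, 21.5 and 15.4 CPM in shPRRC2B cells. Replicate 1 of shCtrl lay nearer to the shPRRC2B libraries than to the other shCtrl libraries, and the groups did not overlap. The TE change was -1.63 ± 0.29 (SE, edgeR adjusted p = 0.000606) and was -1.93 without that replicate. USP27X and USP51, which share the SAGA partners ATXN7L3 and ENY2 with USP22, had TE changes of -0.55 and -0.28 (adjusted p = 0.405 and 0.526, edgeR).

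USP21, an enzyme that acts on histone H2A (ENSG00000143258.17, chromosome 1 of GRCh38, 161159450 to 161165723, plus strand), had the larger TE change of the TE-up members. It was at 53.7, 48.9 and 46.5 CPM in shCtrl and 36.7, 35.02 and 40.3 CPM in shPRRC2B total RNA. Its polysome RNA was at 74.5, 89.4 and 90.3 CPM in shCtrl and 112, 131 and 137 CPM in shPRRC2B cells. Total RNA was lower and polysome RNA higher in every shPRRC2B library. TE changed by 0.99 ± 0.18 (SE, edgeR adjusted p = 0.000666), and the change in polysome RNA was 0.58.

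USP44, a regulator of the mitotic checkpoint, was lower in polysome RNA by a log2 change of -1.27 and had a TE change of -0.86 (adjusted p = 0.0247, edgeR). Its paralog USP49 was lower in polysome RNA (-0.71, adjusted p = 0.0389, edgeR) without a TE call. USP3 and USP16 were called neither in TE nor in either fraction.

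USP45, which acts on the DNA repair nuclease subunit ERCC1 (ENSG00000123552.18, chromosome 6 of GRCh38, 99432325 to 99521728, minus strand), was the other TE-up member. It was at 29.8, 25.8 and 32.8 CPM in shCtrl and 21.6, 23.5 and 23.4 CPM in shPRRC2B total RNA. The polysome libraries held 33.5, 38.9 and 38.9 CPM in shCtrl and 44.02, 45.5 and 46.8 CPM in shPRRC2B cells. The groups did not overlap in either fraction, yet neither change alone passed the thresholds (-0.36 in total and 0.29 in polysome RNA). The change in TE was 0.66 ± 0.18 (SE, edgeR adjusted p = 0.0133), and its paralog USP16 stood at -0.31 (adjusted p = 0.177, edgeR).

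USP1, which together with its cofactor WDR48 removes ubiquitin from FANCD2 and PCNA (ENSG00000162607.13, chromosome 1 of GRCh38, 62436297 to 62451804, plus strand), fell in both fractions. It was at 170.5, 176 and 185 CPM in shCtrl and 118, 119.8 and 114 CPM in shPRRC2B total RNA. On polysomes the level was 132, 159.9 and 155 CPM in shCtrl and 62.9, 61.04 and 45.7 CPM in shPRRC2B cells. No shPRRC2B library reached a shCtrl library in either fraction. The log2 changes were -0.60 in total and -1.40 in polysome RNA, and the TE change was -0.80 ± 0.18 (SE, edgeR adjusted p = 0.00394). WDR48 itself was TE-down, at -0.74 (adjusted p = 0.00599, edgeR), and was lower in total RNA (-0.63) and in polysome RNA (-1.37). Of the other USPs that use WDR48, USP12 was lower in polysome RNA (-0.53, adjusted p = 0.0032, edgeR) and USP46 was not called.

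**Figure D2:**
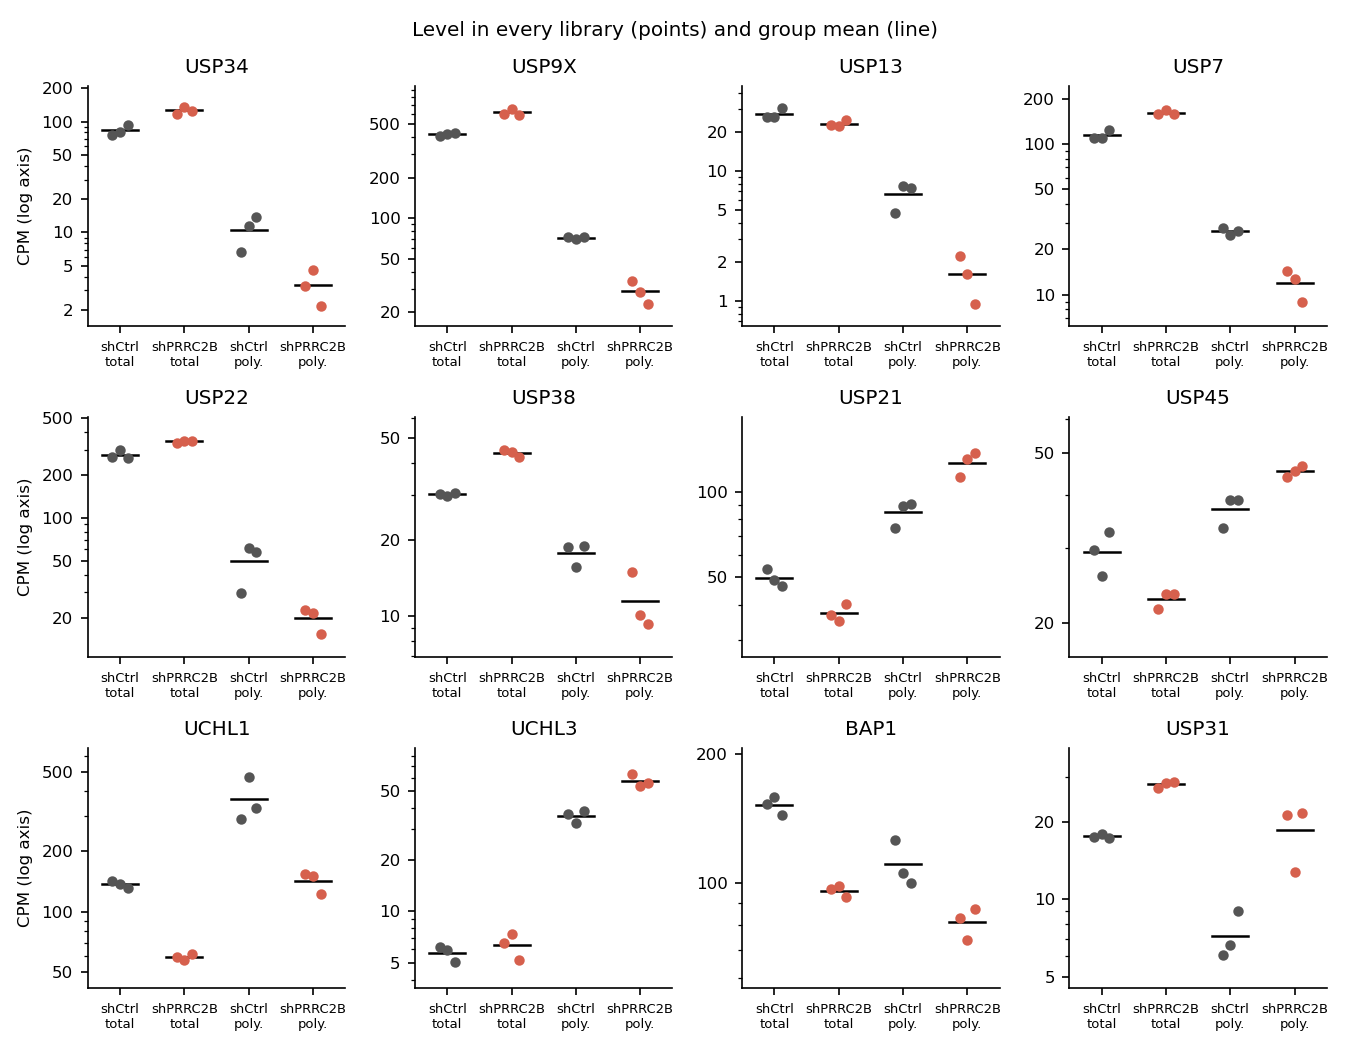
Level in CPM (log y axis, a scale of its own for each gene) of 12 members in every library; points are replicates 1 to 3 from left to right, grey for shCtrl and red for shPRRC2B, and lines are group means. Polysome RNA of USP34, USP9X, USP13, USP7 and USP22 lies below total RNA in both lines and lower still in shPRRC2B, while that of UCHL1 and UCHL3 lies above total RNA.

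Among 7 members with roles at endosomes, the Golgi, the endoplasmic reticulum or mitochondria, 3 were TE-down (16.4% of all genes) and 5 were lower in polysome RNA (21.4% of all genes). USP33, which controls receptor recycling (ENSG00000077254.14, chromosome 1 of GRCh38, 77695987 to 77759852, minus strand), was at 96.4, 90.4 and 99.7 CPM in shCtrl and 67.2, 69.3 and 67.4 CPM in shPRRC2B total RNA. In polysome RNA it was at 35.7, 40.6 and 40.4 CPM in shCtrl and 16.3, 12.8 and 7.90 CPM in shPRRC2B cells. It was lower in every shPRRC2B library of both fractions, by -0.49 in total and -1.65 in polysome RNA, and the change in total RNA did not reach -0.5. The TE change was -1.16 ± 0.24 (SE, edgeR adjusted p = 0.00222). Its paralog USP20 had a TE change of 0.14 (adjusted p = 0.731, edgeR).

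USP8, which sorts receptors on endosomes together with STAM, had a TE change of -1.05, and USP32, a Golgi enzyme, of -1.005 (adjusted p = 0.00391 and 0.0228, edgeR). USP19, which is anchored in the endoplasmic reticulum, and USP30, which opposes mitophagy on the outer mitochondrial membrane, were lower in polysome RNA by -1.01 and -0.55 without a TE call. Reads of USP8 and of USP50, which overlaps it on the opposite strand, could not be told apart where the genes overlap, and USP6 shares near-identical sequence with USP32. USP50 and USP6 had a mean under 1 CPM.

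Total and polysome RNA also moved apart in USP38 (ENSG00000170185.11, chromosome 4 of GRCh38, 143184917 to 143223874, plus strand). It was at 30.1, 29.7 and 30.6 CPM in shCtrl and 44.8, 44.4 and 42.1 CPM in shPRRC2B total RNA. Its polysome RNA was at 18.7, 15.6 and 18.9 CPM in shCtrl and 14.9, 10.1 and 9.32 CPM in shPRRC2B cells. As with USP34 and USP9X, total RNA was higher and polysome RNA lower in every shPRRC2B library, and the TE change was -1.17 ± 0.23 (SE, edgeR adjusted p = 0.00126). Its paralog USP35 stood at -0.04 (adjusted p = 0.953, edgeR).

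USP14, which edits ubiquitin chains on proteins at the proteasome, had a TE change of -0.85 with neither fraction past the thresholds alone. USP25 was lower in both fractions and had a TE change of -0.71 (adjusted p = 0.0124, edgeR), while its paralog USP28 was not called. USP54 had a TE change of -0.92 from higher total RNA (0.63), with polysome RNA at -0.29. USP4, a deubiquitinase of the splicing factor PRPF3, fell in both fractions (-0.58 in total and -0.96 in polysome RNA) without a TE call, and its paralogs USP11 and USP15 were not called in either fraction.

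Of 5 enzymes with roles in immune and growth signalling, USP9X and USP25 were TE-down and 3 were not called, beside 16.4% TE-down over all genes. CYLD, a tumour suppressor that takes apart the chains that feed NF-kB signalling, had a TE change of -0.28 (adjusted p = 0.435, edgeR). USP18, which removes the ubiquitin-like protein ISG15, stood at 0.07 and USP11 at -0.02 (adjusted p = 0.855 and 0.963, edgeR). Reads of USP18 are uncertain where it matches the pseudogene USP41. Of 4 members with roles in splicing or the nucleolus (USP4, USP15, USP36 and USP39), none was a TE call in edgeR, and their TE changes ran from -0.54 to -0.306. Nucleolar USP36 stood at -0.54 (adjusted p = 0.0581, edgeR), beside its TE-down paralog USP42.

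Leaving out single libraries ended 4 of the 20 TE calls. USP32 was not called when replicate 1 of shCtrl total, 2 of shPRRC2B total or 2 of shPRRC2B polysome RNA was left out. USP42 was not called without replicates 1 or 3 of shCtrl total, 2 of shPRRC2B total, or 2 or 3 of shPRRC2B polysome RNA. USP44 lost its call without replicates 1 or 2 of shCtrl total or 2 of shPRRC2B total RNA. USP47 lost its call without replicate 2 of either line's total RNA, or 2 or 3 of shPRRC2B polysome RNA. In these cases the adjusted p reached at most 0.0744 in edgeR and the TE changes ran from -0.997 to -0.651.

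USP53, a protein of cell junctions with intronic sites in the study's tables (ENSG00000145390.12, chromosome 4 of GRCh38, 119212587 to 119295518, plus strand), had no TE call. It was at 32.8, 32.1 and 37.5 CPM in shCtrl and 38.3, 40.96 and 41.9 CPM in shPRRC2B total RNA. The polysome libraries held 15.7, 19.3 and 20.7 CPM in shCtrl and 27.8, 23.02 and 14.4 CPM in shPRRC2B cells. The polysome groups overlapped. TE changed by -0.02 ± 0.27 (SE, edgeR adjusted p = 0.992), so its sign was not resolved. Thus 5 of the 6 members with a listed site (USP1, USP9X, USP13, USP22 and USP33) were TE-down, beside 34.6% of the members and 16.4% of all genes. These 6 were not matched to other genes by RNA level or length, and a link between sites and TE was not tested. Of the 3 with sites of both constructs, USP13 and USP22 were TE-down and USP53 was not called, and the sites of USP13 and USP53 are those that resemble ribosomal RNA.

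USP39, a splicing factor whose USP domain lacks the catalytic residues, was higher in total RNA (0.55, adjusted p = 0.0015, edgeR), as was USP37, which acts in DNA replication (0.59, adjusted p = 0.0466, edgeR). USP31 (ENSG00000103404.15, chromosome 16 of GRCh38, 23061406 to 23149452, minus strand) rose in both fractions. It was at 17.4, 18.04 and 17.3 CPM in shCtrl and 27.1, 28.4 and 28.8 CPM in shPRRC2B total RNA. On polysomes the level was 6.09, 6.62 and 8.98 CPM in shCtrl and 21.3, 12.8 and 21.7 CPM in shPRRC2B cells. Neither fraction overlapped between the lines. The change was 0.68 in total RNA and 1.37 ± 0.20 (SE, edgeR adjusted p = 4.61e-05) in polysome RNA, the largest called rise of any member there. The TE change of 0.69 did not pass the test (adjusted p = 0.0678, edgeR), but it was TE-up at 1.51 with the length trend removed.

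The 4 UCH members had no TE call. UCHL1, an abundant neuronal enzyme (ENSG00000154277.13, chromosome 4 of GRCh38, 41256413 to 41268455, plus strand), had the largest called fall in total RNA. It was at 143, 138 and 132 CPM in shCtrl and 59.5, 57.6 and 61.3 CPM in shPRRC2B total RNA. In polysome RNA it was at 291, 472 and 327 CPM in shCtrl and 155, 150.1 and 123 CPM in shPRRC2B cells. Both fractions fell by a like amount, -1.21 ± 0.16 (SE, edgeR adjusted p = 1.98e-05) in total and -1.35 ± 0.16 (SE, edgeR adjusted p = 3.78e-06) in polysome RNA, and the TE change was -0.14 (adjusted p = 0.688, edgeR). Neurofilament genes fell along with it, as given above.

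UCHL3 (ENSG00000118939.19, chromosome 13 of GRCh38, 75549483 to 75606020, plus strand), with the shortest transcript of the tested members, was at 6.23, 5.95 and 5.04 CPM in shCtrl and 6.53, 7.40 and 5.20 CPM in shPRRC2B total RNA, and these groups overlapped. Its polysome RNA was at 36.7, 32.5 and 38.2 CPM in shCtrl and 62.9, 53.7 and 55.5 CPM in shPRRC2B cells, and these did not overlap. The rise in polysome RNA was 0.68 ± 0.15 (SE, edgeR adjusted p = 0.00126), and the TE change of 0.53 missed the threshold (adjusted p = 0.0806, edgeR).

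UCHL5, which binds the proteasome through ADRM1 (ENSG00000116750.14, chromosome 1 of GRCh38, 193012250 to 193060080, minus strand), was at 79.9, 76.9 and 92.6 CPM in shCtrl and 67.7, 67.5 and 64.1 CPM in shPRRC2B total RNA. The polysome libraries held 78.1, 125 and 114 CPM in shCtrl and 70.2, 64.8 and 52.3 CPM in shPRRC2B cells. It was lower in every shPRRC2B library of both fractions, and the change passed the thresholds in polysome RNA only, at -0.76 ± 0.16 (SE, edgeR adjusted p = 0.000995).

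BAP1, a tumour suppressor that removes ubiquitin from histone H2A with its ASXL partners (ENSG00000163930.10, chromosome 3 of GRCh38, 52401008 to 52410008, minus strand), was at 154, 159 and 145 CPM in shCtrl and 96.8, 98.4 and 92.8 CPM in shPRRC2B total RNA. On polysomes the level was 126, 106 and 100 CPM in shCtrl and 82.9, 73.9 and 87.2 CPM in shPRRC2B cells. No shPRRC2B library reached a shCtrl library in either fraction. The fall was -0.67 ± 0.12 (SE, edgeR adjusted p = 0.000353) in total RNA, and that in polysome RNA, -0.45, did not reach -0.5. The change in TE was 0.22 (adjusted p = 0.346, edgeR).

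The fractions showed which side the TE calls came from. In total RNA, 9 members were higher (17.3%, beside 14.9% of all genes) and 5 were lower (9.62%, beside 14.1%), with a median change of 0.112 beside 0.0388 over all genes. In polysome RNA, 3 members were higher (5.77%, beside 18.4%) and 21 were lower (40.4%, beside 21.4%), with a median of -0.309 beside -0.0114. With the length trend removed, 6 were higher and 14 lower in polysome RNA, with a median of -0.117 beside 0.0068 over all genes with a known length. In that setting, shares of all genes were counted for TE only, so the shares above do not apply to these counts. Of the 18 TE-down members, 11 were lower in polysome RNA without a called rise in total RNA. Among these 11, USP1 and USP25 were lower in total RNA too. Another 3 were past the thresholds in total RNA only (USP47, USP48 and USP54), 3 in both in opposite directions (USP34, USP38 and USP9X) and USP14 in neither. UCHL1, USP1, USP25 and USP4 were lower in both fractions, and 20 members were called in no comparison of the lines. Neither of these groups was set beside a share of all genes. The split of 9 higher and 5 lower in total RNA became 4 and 6 when libraries were scaled by total counts, 6 and 6 with TMM within each fraction, and 2 and 8 with the length trend removed. Without shCtrl polysome replicate 2, shPRRC2B polysome replicate 2 or shPRRC2B polysome replicate 3, 5 members were higher in total RNA.

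**Figure D3:**
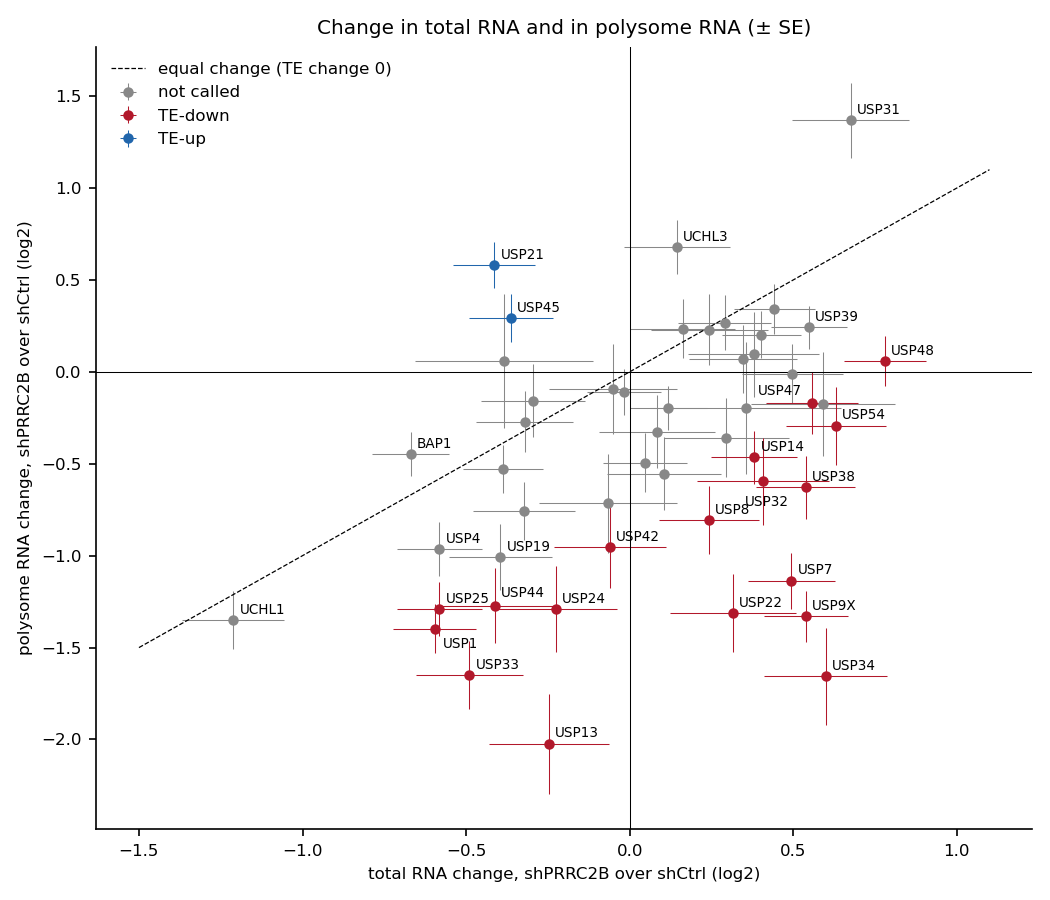
Change in total RNA (x axis) and in polysome RNA (y axis) between the lines, log2, with bars of 1 standard error, for the 50 members with a mean of at least 1 CPM; genes below the dashed line have a TE change below 0. USP34, USP9X and USP38 lie at lower right, UCHL1 lies near the line at -1.21 and -1.35, and USP31 lies at upper right.

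The members' mRNAs were mostly under-represented in polysomes before any difference between the lines was taken. In shCtrl cells, 37 members had a lower polysome-to-total ratio than the scaling sets as even (71.2%, beside 39.8% of all genes) and 6 a higher one (11.5%, beside 32.5%). In shPRRC2B cells, 40 were lower (76.9%, beside 42.3%) and 6 higher (11.5%, beside 36.6%). Both lines gave a called lower ratio for 36 members and a called higher one for 4. The shares of all genes called the same way in both lines were not counted. The median log2 ratio of the members was -1.28 in shCtrl and -1.61 in shPRRC2B cells, beside -0.223 and -0.218 over all genes. The TE changes are built from these ratios, so the 2 are not separate evidence.

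Among members above 1 CPM, the ratio was lowest in USP24 in shCtrl cells and in USP34 in shPRRC2B cells. USP24 stood at -3.49 in shCtrl and -4.56 in shPRRC2B cells, and USP34 at -2.98 and -5.24. It was highest in UCHL3, at 2.63 ± 0.16 (SE, edgeR adjusted p = 9.58e-11) in shCtrl and 3.16 in shPRRC2B cells, while its relative UCHL1 stood at 1.40 and 1.26. The zero of this ratio depends on the scaling. Scaling by total counts or TMM within each fraction shifted the median ratio of all genes in shCtrl cells by -0.996 and -1, and the split of 6 higher and 37 lower members became 1 and 45. With the length trend removed it became 14 and 17, where UCHL1 stood at -0.25. In shPRRC2B cells the split of 6 and 40 became 2 and 45 under both of the former scalings and 15 and 22 with the length trend removed. Of the members, only UCHL3 had a called higher ratio in shCtrl cells under TMM and the 3 alternatives.

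**Figure D4:**
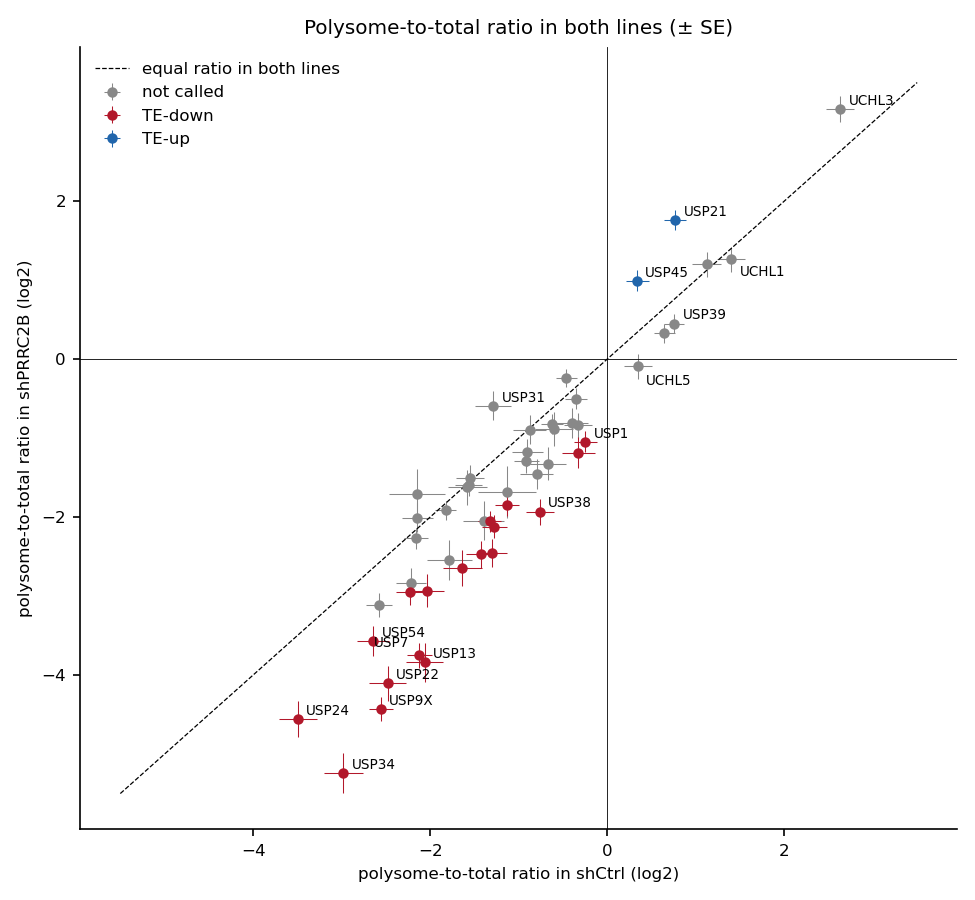
Polysome-to-total ratio in shCtrl cells (x axis) and in shPRRC2B cells (y axis), log2, with bars of 1 standard error, for the 50 members with a mean of at least 1 CPM; the distance from the dashed line is the TE change. UCHL3 lies at upper right at 2.63 and 3.16, and USP24 and USP34 lie at lower left.

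Levels were compared between genes per kilobase of the canonical transcript. In shCtrl total RNA, UCHL1 was highest at 124.9 ± 5.03 CPM per kb (SD, n = 3), followed by USP22 at 52.9 ± 3.76, USP1 at 49.1 ± 1.98, BAP1 at 42.4 ± 2.04, USP11 at 39.3 ± 2.22 and USP9X at 33.7 ± 0.97 CPM per kb. USP22 and USP1 lay within their summed SDs of each other, as did BAP1 and USP11. In shPRRC2B total RNA, USP22 came first at 65.9 ± 1.24 and UCHL1 second at 53.9 ± 1.68 CPM per kb. In polysome RNA, UCHL1 was first in both lines, at 329.4 ± 86.7 in shCtrl and 129.3 ± 15.5 CPM per kb in shPRRC2B cells. The second was USP39 at 47.4 ± 5.94 in shCtrl cells and UCHL3 at 61.6 ± 5.28 CPM per kb in shPRRC2B cells, but neither was separated from the next genes. USP1 at 41.4 ± 4.18 and UCHL3 at 38.5 ± 3.13 CPM per kb lay within the summed SDs of USP39 in shCtrl cells, and USP39 at 56.1 ± 1.64 and USP21 at 54.7 ± 5.51 CPM per kb within those of UCHL3 in shPRRC2B cells.

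The members are encoded by long transcripts. Their median canonical length was 5031 nt, beside 3046.5 nt over all 15730 tested genes with a known length, and 45 of 52 were longer than that median. Among the 17 shortest (931 to 4185 nt), 2 were TE-down (11.8%), beside 10.4% of all genes in that range of lengths. Among the next 17 (4293 to 5872 nt), 7 were TE-down (41.2%), beside 30.6% of all genes of such length. Among the 18 longest (5878 to 18865 nt), 9 were TE-down (50.0%), beside 42.8%. Across the 52 members, the TE change and log10 length had a Pearson correlation of -0.448 and a Spearman correlation of -0.419, beside -0.318 and -0.412 across all genes, where all points share the same 12 libraries.

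The 7 members that stayed TE-down with the length trend removed were USP1, USP7, USP9X, USP13, USP22, USP33 and USP34, all called before. USP34 then stood at -1.43, USP22 at -1.19, USP7 at -1.12, USP13 at -1.10 and USP9X at -1.03. USP8, whose canonical transcript of 18865 nt is the longest of the set, stood at -0.11. USP15, at 14971 nt, had a TE change of -0.51 that did not pass the test (adjusted p = 0.103, edgeR) and stood at 0.38 with the trend removed.

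**Figure D5:**
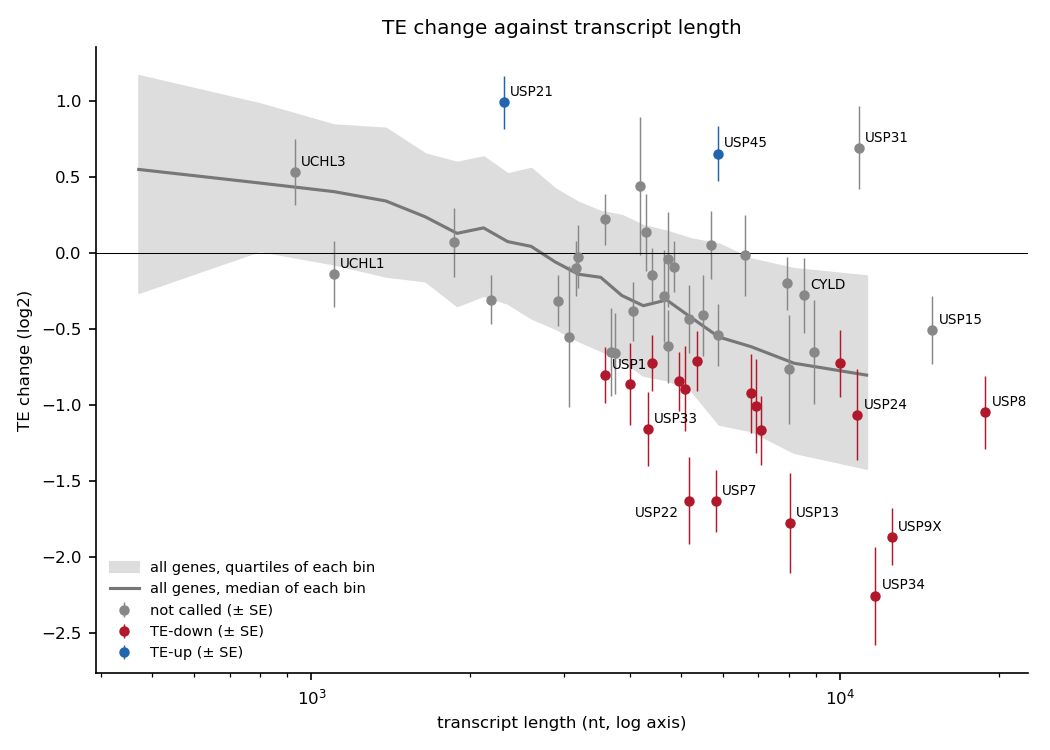
TE change (log2, y axis) against the length of the canonical transcript (nt, log x axis) for the 50 members with a mean of at least 1 CPM, with bars of 1 standard error; the grey line and band are the median and quartiles of all tested genes in 20 bins of length. The band falls from short to long transcripts, UCHL3 lies at the short end above 0, and USP22, USP7, USP13, USP9X and USP34 lie below the band.

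The other families of deubiquitinases (OTU, Josephin, JAMM, MINDY and ZUFSP) held calls in both directions, near the shares of all genes. Of 32 genes, 29 were tested, of which 6 were TE-down and 4 TE-up, beside 16.4% and 10.7% of all genes, with a median TE change of -0.224. The TE-down genes were MINDY2 (-1.88), OTUD3 (-1.33), OTUD7B (-1.16), VCPIP1 (-1.14), YOD1 (-1.11) and OTUD4 (-0.85). The TE-up genes were JOSD2 (1.57), ALG13 (1.23), STAMBPL1 (0.82) and MINDY4 (3.34, standard error 1.14, with a mean under 1 CPM).

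Of 18 partners and cofactors of the members, 9 were TE-down and 1 was TE-up, beside 16.4% and 10.7% of all genes, with a median TE change of -0.611. These partners were not set beside genes of like transcript length. TE-down were HCFC1 (-2.05), ASXL2 (-1.30), ASXL3 (-1.46) and FOXK1 (-0.79), all partners of BAP1. ATXN7 (-1.33), which tethers the USP22 module to SAGA, GMPS (-1.13), a partner of USP7, and STAM (-0.99) and STAM2 (-1.78), partners of USP8, were TE-down too, as was WDR48. ASXL1 was TE-up (0.83). In polysome RNA, members and partners did not always carry the same call. Both genes were lower in the pairs USP22 and ATXN7, USP7 and GMPS, USP1 and WDR48, and USP8 and STAM2. USP22 was lower while its partners ATXN7L3 (-0.0034) and ENY2 (0.48) were not called. Likewise USP8 was lower and STAM (-0.06) not called, and UCHL5 was lower and ADRM1 (0.35) and NFRKB (-0.25) not called. WDR20, a cofactor of USP12 and USP46, was higher (0.88), and BAP1 was not called while HCFC1 was lower (-1.64).

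The ubiquitin-activating enzymes UBA1 (-0.87) and UBA6 (-1.26), which charge ubiquitin at the start of the cascade, were TE-down.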

How the data were processed

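Per the labels and the study's methods, the authors trimmed reads with Trimmomatic, aligned them to GRCh38 with HISAT2 and counted read pairs per gene name of GENCODE 38 with featureCounts. The deposited values are these raw counts for 12 libraries, with no normalization. The table had 5 empty unnamed columns and 0 columns of other libraries. Multi-mapping pairs were not counted, genes that share a name are summed, and the stated counting options name no strand setting, for which the default of featureCounts is to ignore strand. Library totals of 9855734 to 20837542 counts limit the precision for genes with few counts.

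Counts were scaled by TMM (factors 1.344 to 1.471 in total and 0.6806 to 0.7417 in polysome libraries), filtered with filterByExpr at a minimum count of 10 and tested with edgeR 4.0.16 (glmQLFit and glmQLFTest) over all 4 groups. TE was the interaction of line and fraction. The standard error was the change over the square root of F. Thresholds were an adjusted p of 0.05 and a log2 change of 0.5. The procedure was tested on simulated data. Samples were grouped by the labels, which call them biological replicates. Alternatives were DESeq2 1.42.0, limma 3.58.1 on log2(CPM + 1), other scalings and filters, no minimum log2 change, removal of each library's trend on transcript length (lowess, span 0.3), a replicate block and leaving out each library.

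Lengths and coordinates came from the canonical transcripts of GENCODE 44 on GRCh38, and site sequences from the same genome. Sites were aligned to RNA28SN2 by local alignment with Biopython. Values in every library are given for the 6 called members with the lowest and up to 4 with the highest TE change at a mean of at least 10 CPM, members with a listed site, the 4 UCH members and the 2 largest called rises and falls in each fraction. Other called members and paralogs are given by their changes. The members and lists were chosen with earlier results of these data known. In addition, 1 matching symbol is not reported here.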

Additional observations from a re-analysis of the deposited data

Results flagged for a closer look

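In 3 members, total and polysome RNA passed the thresholds in opposite directions between the lines (edgeR). USP34 had a TE change of -2.26, with 0.60 in total and -1.66 in polysome RNA. USP9X had a TE change of -1.87, with 0.54 in total and -1.33 in polysome RNA. USP38 had a TE change of -1.17, from higher total and lower polysome RNA. The difference between the fractions is the TE test itself. With the length trend removed, the changes in total RNA were 0.38 in USP34, 0.32 in USP9X and 0.37 in USP38 and none was called, and USP38 stood at -0.19 in polysome RNA.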

How the results depend on the processing

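TE calls of USP34, USP9X, USP13, USP7, USP22, USP21, USP1 and USP33 held under every alternative run, and 16 of 20 held with any 1 library left out. For the changes below the cause was not tested. TE-up members numbered 1 with no filter and 4 with at least 10 counts in every library. With the length trend removed, with or without the replicate block, 7 members were TE-down, 2 were higher and 8 lower in total RNA, 6 were higher in polysome RNA, and 14 had a higher and 17 a lower ratio in shCtrl cells. The median TE change was then -0.0853 without and -0.0758 with the block. Scaling by total counts gave 4 members higher in total RNA, and total counts or TMM within each fraction gave 1 with a higher ratio. With no minimum log2 change, 14 were higher and 9 lower in total RNA.

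Leaving out single libraries gave 2 to 3 TE-up and 14 to 24 TE-down members, 5 to 10 higher and 5 to 6 lower in total RNA, 2 to 3 higher and 19 to 25 lower in polysome RNA, 6 with a higher and 36 to 38 with a lower ratio in shCtrl cells, and a median TE change from -0.641 to -0.402, the first without shPRRC2B polysome replicate 1.

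The TE change of USP53 turned sign with total counts (0.0531), TMM within each fraction (0.0517), at least 10 counts (0.051) and the length trend removed (0.562, and 0.56 with the block), and ran from -0.296 to 0.178 with single libraries left out. Its value of -0.02 lay within its standard error of 0, and the first 2 of these scalings moved the median TE change of all genes by 0.0522 and 0.0619. UCHL1 ran from -0.312 to 0.0459. With the length trend removed, UCHL5 stood at 0.00552 (0.0159 with the block) and USP47 at 0.0493 (0.0383 with the block). USP45 (0.609) and USP44 (-0.909) were not called with no filter, nor USP32 (-0.845) with limma, and USP24 stood at -0.698 without shCtrl polysome replicate 3.

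Same-numbered samples did not deviate together (correlations of -0.000194 to 0.0507). The replicate block gave 2 TE-up and 19 TE-down members, 8 higher and 5 lower in total RNA, and 3 higher and 19 lower in polysome RNA. Depth limits USP13 polysome RNA in shPRRC2B cells (10 to 26 counts) and USP6 and USP50, with a mean under 1 CPM.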
